A study of Mus musculus with 10 samples.

Results

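The Hox genes encode homeodomain transcription factors, and the 39 members described here were every gene in the deposited tables whose Ensembl identifier carries a mouse symbol of the form Hoxa, Hoxb, Hoxc or Hoxd followed by a number, of 25006 genes in all. Membership was set by names and no measured value, although the choice was made with earlier results of these data known. RNA was taken from individual cells in the nucleus of the solitary tract, a hindbrain relay for signals from the gut, heart and airways, in slices from C57BL/6 mice of 3 months. Sorted by how they fired, 5 neurons are type 2 (6-2, 10-1, 10-3, 9-2 and 9-4) and another 5 are type 1 (1-1, 1-2, 4-3, 8-2 and 9-1), and the labels explain neither the firing nor these numbers. Both types carry the same alleles, LepRb-Cre; Halo-eYFP, in which Cre recombinase driven from the leptin receptor gene switches on a yellow fluorescent reporter, so a cell is marked if Cre was active in it at any time. Cytoplasm and nucleus of each cell were drawn into a glass pipette, and each library holds 1 neuron. Since no label ties a cell to an animal, a firing type is treated as 1 sample, differences between types were not tested, and an SD is the spread between 5 single cells. Levels are CPM, counts scaled to a common total of reads assigned to genes in each neuron.

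Mammalian Hox genes lie in 4 clusters, Hoxa, Hoxb, Hoxc and Hoxd, and are numbered by 13 paralog groups, sets of related genes that hold the same place in each cluster. In the embryo, genes of low group number are expressed up to a front limit in the hindbrain, and genes of higher number start further towards the tail, in the order in which they lie on the chromosome. The nucleus of the solitary tract lies in the caudal hindbrain. Retinoic acid opens the low-numbered end of the clusters in development, Polycomb complexes keep the unexpressed part silent, and many neurons go on expressing their Hox genes in adult life. On GRCm38, the assembly that mm10 names, the Hoxa genes lie on chr6 on the minus strand, and the other clusters span chr11:96194316-96368256 (Hoxb), chr15:102921103-103036852 (Hoxc) and chr2:74668310-74765142 (Hoxd), all 3 on the plus strand.

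The 3 promoters below come from a single cluster and belong to genes with unlike detection: Hoxa5 was detected in all 10 neurons, Hoxa2 in 2 and Hoxa13 in none. Each is the 250 bases before the RefSeq start site on GRCm38.p6, minus strand, printed 5′ to 3′ (Hoxa5 chr6:52204588-52204837, Hoxa2 chr6:52164832-52165081, Hoxa13 chr6:52260881-52261130). Capitals mark matches on either strand to TGATNNAT, a form of the paired site of Hox and Pbx proteins, TGACAG, the core site of Meis proteins, TATAAA and CCAAT.
Hoxa5: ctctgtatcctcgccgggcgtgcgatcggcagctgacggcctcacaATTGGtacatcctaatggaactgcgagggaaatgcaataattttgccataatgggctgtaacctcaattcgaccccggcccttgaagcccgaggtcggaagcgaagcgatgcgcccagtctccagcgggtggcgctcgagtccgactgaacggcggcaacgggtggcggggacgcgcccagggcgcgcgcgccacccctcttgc
Hoxa2: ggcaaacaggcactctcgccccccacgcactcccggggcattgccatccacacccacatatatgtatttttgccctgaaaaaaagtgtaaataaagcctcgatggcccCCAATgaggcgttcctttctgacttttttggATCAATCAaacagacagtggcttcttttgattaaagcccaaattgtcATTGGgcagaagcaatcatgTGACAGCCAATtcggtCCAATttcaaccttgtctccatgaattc
Hoxa13: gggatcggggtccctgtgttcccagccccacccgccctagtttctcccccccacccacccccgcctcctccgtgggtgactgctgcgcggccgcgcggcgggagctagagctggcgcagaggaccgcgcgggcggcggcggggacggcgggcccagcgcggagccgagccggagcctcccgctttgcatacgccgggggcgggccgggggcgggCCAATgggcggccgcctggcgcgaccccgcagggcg
The Hoxa2 window holds 1 TGATNNAT, 1 TGACAG and 4 CCAAT matches, none of which share a base, while the Hoxa5 and Hoxa13 windows hold 1 CCAAT each. Among 32841 windows of the same length from all genes, 7.69% hold TGATNNAT, 15.9% TGACAG, 12.4% TATAAA and 33.9% CCAAT. For 22 of the 39 Hox genes the RefSeq table gave 24 windows, of which 4 hold TGATNNAT, 2 TGACAG, 4 TATAAA and 14 CCAAT. The Hoxa13 window has 35 CG dinucleotides, that of Hoxa5 28 and that of Hoxa2 6, beside a median of 12.5 over the Hox windows and 6 over all windows.

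A gene was called detected in a neuron from 10 CPM upwards if it also had at least 3 counts. Of the 39 members, 17 were detected in at least 1 neuron, where 47.1% of all genes were, and all 17 belong to paralog groups 1 to 8. Hoxa5, Hoxb5 and Hoxc4 were detected in all 10 neurons, as were 6.77% of all genes. Another 7 members had some counts without being detected, and 15 had none in any neuron, as 41.6% of all genes did. No 2 of the 10 sets of detected Hox genes were the same. This is not particular to Hox genes: between types, pairs of neurons differed in a median of 45.5% of them and 49.6% of all genes. In the Hoxa cluster the set ended at group 5 or 6 in all 10 neurons. In the Hoxb cluster it ended at group 5 or 6 in 8 neurons, at group 7 in 9-1 and at group 8 in 1-2. In the Hoxc cluster it ended at group 4, 5 or 6, and Hoxd3 was the one Hoxd gene detected.

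**Figure D1:**
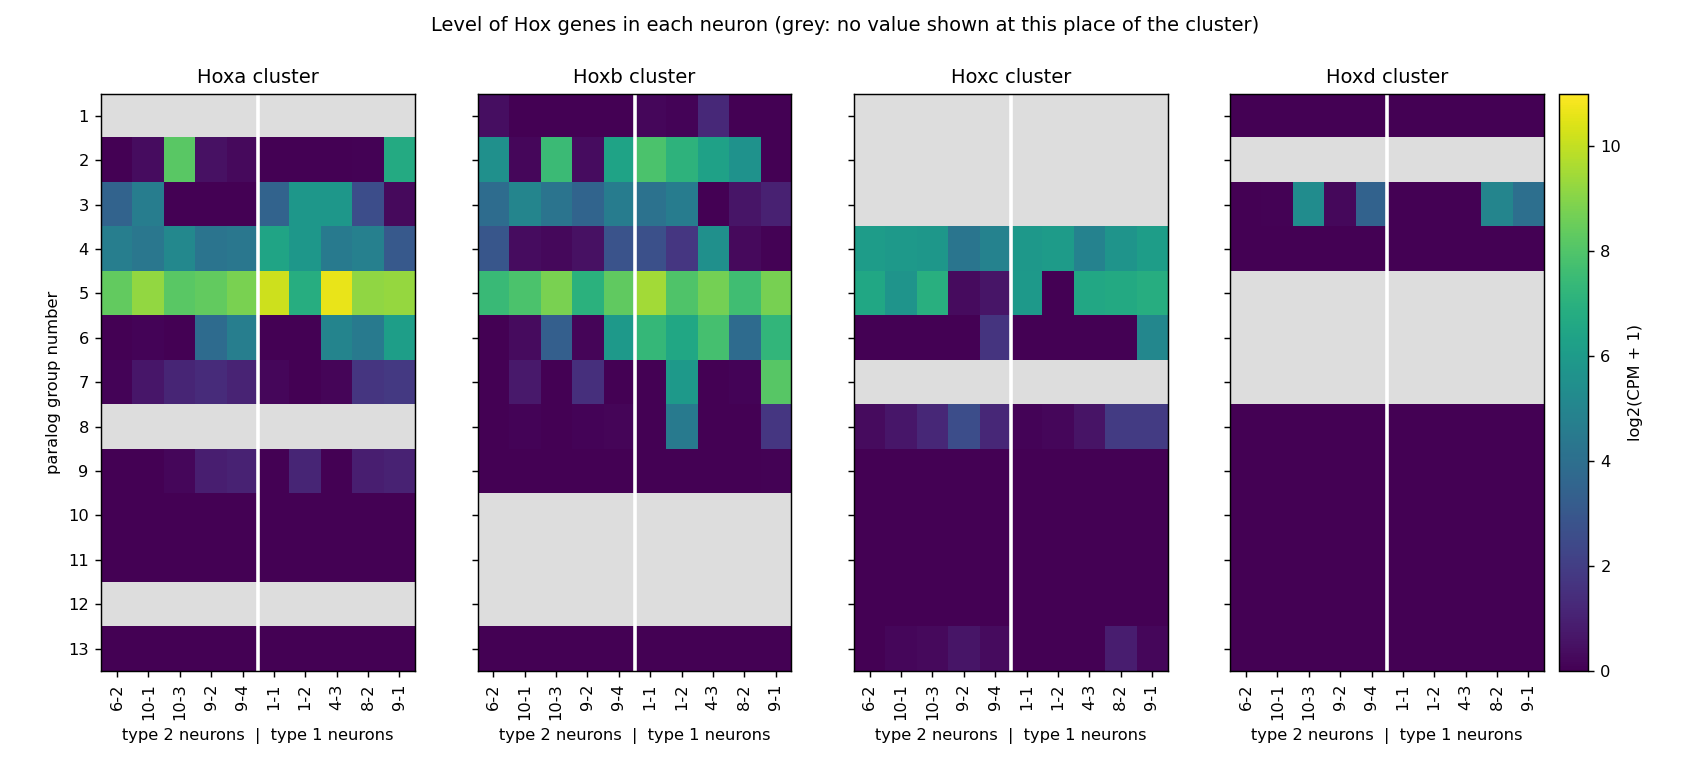
Level of Hox genes in each of 10 single neurons, as colour on a log2(CPM + 1) scale, with 1 panel per cluster, paralog group number running down from 1 to 13, and type 2 neurons left and type 1 neurons right of the white line; grey marks places with no value shown. The brightest row is group 5 in the Hoxa and Hoxb clusters, colour above the detection limit is found in groups 1 to 8, and groups 9 to 13 are at or near 0 in all 10 neurons.

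Within a neuron the detected genes did not fill the cluster without breaks. Hoxb4 was below the detection limit in 9 of 10 neurons although Hoxb5 beside it was detected in all 10. In 9-1 the Hoxa cluster had Hoxa2, Hoxa5 and Hoxa6 detected and Hoxa3 and Hoxa4, which lie between them, not. The number of detected members was 8, 7, 9, 6 and 8 in type 2 neurons 6-2, 10-1, 10-3, 9-2 and 9-4, and 10, 10, 10, 9 and 10 in type 1 neurons 1-1, 1-2, 4-3, 8-2 and 9-1. The ranges met at 9. As a share of the 39 members that is 15.4% to 23.1% in type 2 and 23.1% to 25.6% in type 1, beside 24.0% to 29.5% of all genes in type 2 and 21.3% to 28.3% in type 1.

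Over each type as a whole, 12 members were detected in type 2 and 17 in type 1. All 12 were among the 17, and the other 5, among them Hoxb4, Hoxb7, Hoxb8 and Hoxc6, were detected in type 1 alone. Of all 25006 genes, 41.7% were detected in type 2, 41.0% in type 1, 6.09% in type 2 alone and 5.41% in type 1 alone. Of any pair of neurons, the detected Hox genes that only 1 of the pair had made up a median of 40.0% of those either had over the 10 pairs within type 2, 43.9% over the 10 pairs within type 1 and 45.5% over the 25 pairs between types. For all genes the same shares were 43.2% within type 2, 50.3% within type 1 and 49.6% between types.

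Paralog group 5, whose Hoxa5 and Hoxc5 genes are needed in mice for the motor neurons that drive the diaphragm, held the largest share of the summed Hox level of any paralog group in all 10 neurons. Hoxa5 (ENSMUSG00000038253, chr6:52201754-52204587) had 326, 596, 293, 326 and 445 CPM in type 2 neurons 6-2, 10-1, 10-3, 9-2 and 9-4, and 1142, 116, 1582, 576 and 617 CPM in type 1 neurons 1-1, 1-2, 4-3, 8-2 and 9-1. Type 2 neurons lay within a narrow band inside the type 1 range, which 1-2 bounds below and 4-3 above. Type 2 averaged 397 ± 125 CPM and type 1 averaged 807 ± 566 CPM (SD over 5 neurons in each case), a difference of -0.64 in mean log2(CPM + 1). It was -1.22 without 1-2, -0.40 without 1-1 and -0.28 without 4-3.

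Hoxb5 (ENSMUSG00000038700, chr11:96303336-96306121), which acts in neural crest cells that build the enteric nervous system, had 175, 238, 434, 130 and 319 CPM in type 2 neurons, and 716, 250, 417, 199 and 432 CPM in type 1 neurons, in the same order of neurons. The ranges overlapped, with only 1-1 above every type 2 neuron and only 6-2 and 9-2 below every type 1 neuron. The means were 259 ± 121 CPM in type 2 and 403 ± 203 CPM in type 1, a difference of -0.62, which was -0.40 without 9-2 and -0.37 without 1-1. Hoxb5 shares 100 exon bases with Hoxb5os on the other strand, and the strand setting of the counting is not given in the sources used here.

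Hoxc5 (ENSMUSG00000022485) was present or nearly absent. It had 91.6, 51.1, 123, 0.25 and 0.54 CPM in type 2 neurons, and 60.6, 0, 94.3, 103 and 116 CPM in type 1 neurons. The 3 neurons at or near 0 were 9-2 and 9-4 of type 2 and 1-2 of type 1, and the other 7 neurons all had more than 50 CPM. Hoxc5 shares 166 exon bases with Hoxc10, which had 0 counts. The 3 genes of group 5 summed to 457 to 885 CPM in type 2 and 366 to 2093 CPM in type 1.

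In paralog group 4, Hoxc4 and Hoxa4 were detected in most neurons. Hoxc4 (ENSMUSG00000075394) had 65.9, 58.7, 56.2, 18.6 and 28.4 CPM in type 2 neurons, and 58.0, 64.1, 28.8, 50.7 and 69.7 CPM in type 1 neurons. Its range spanned less than 4-fold, and 9-2 and 9-4, the type 2 neurons lowest in Hoxc4, were also those that nearly lacked Hoxc5. Type 1 did not share this: 1-2, with 0 CPM of Hoxc5, had 64.1 CPM of Hoxc4, and 4-3, lowest in Hoxc4, had 94.3 CPM of Hoxc5. Hoxa4 (ENSMUSG00000000942) had 25.1, 19.4, 34.4, 17.9 and 19.4 CPM in type 2 neurons, and 84.7, 56.4, 21.4, 27 and 7.42 CPM in type 1 neurons. Hoxa4 spanned more than 10-fold and fell short of detection in 9-1, and the type 2 values again lay inside the type 1 range.

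Hoxb4, best known for expanding blood stem cells, had counts in all 10 neurons but was detected only in 4-3, at 44.9 CPM, and its highest type 2 level was 6.81 CPM in 6-2. In 4-3 its neighbour Hoxb3 had 0 counts. Hoxd4 had 0 counts in every neuron, while Hoxd3, with which it shares 388 exon bases on the same strand, had 311 to 1437 counts in 4 of them. Gm28230, also on the same strand and not analysed here, shares 2225 exon bases with Hoxd3 and 1154 with Hoxd4. The levels of Hoxd3 and Hoxd4 are therefore uncertain.

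Paralog group 6 was where the types lay furthest apart. Hoxb6 (ENSMUSG00000000690, chr11:96292476-96301569) had 0, 0.26, 8.95, 0.11 and 59.9 CPM in type 2 neurons, and 161, 93.1, 216, 13.3 and 151 CPM in type 1 neurons. It was detected in 1 of 5 type 2 neurons and in 5 of 5 type 1 neurons. The ranges overlapped through 9-4 of type 2 and 8-2 of type 1. The means were 13.8 ± 26 CPM in type 2 and 127 ± 76.9 CPM in type 1, a difference of -4.60.

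Hoxa6 had 0, 0.07, 0.03, 13.5 and 25 CPM in type 2 neurons, and 0, 0, 30.2, 21.5 and 71.6 CPM in type 1 neurons. Detection was reached by 2 type 2 neurons and 3 type 1 neurons, and all 3 neurons whose name starts with 9 were among these 5. Hoxc6, a gene of brachial motor neurons, reached 32.9 CPM in 9-1 of type 1 and 2.16 CPM in 9-4 of type 2 and had 0 counts in the other 8.

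Group 7 and 8 RNA came mainly from a pair of type 1 neurons. Hoxb7 (ENSMUSG00000038721, chr11:96286623-96290162), known from the developing kidney duct, had 0, 0.70, 0.03, 1.75 and 0 CPM in type 2 neurons, and 0, 59.3, 0, 0.07 and 286 CPM in type 1 neurons. Its mean log2 level was 2.38 lower in type 2, and 1.05 lower without 9-1 or 1.61 lower without 1-2, so those neurons carry the difference. Hoxb8, which in mice marks a lineage of microglia, reached 22.4 CPM in 1-2 and 2.29 CPM in 9-1 and was at or below 0.0954 CPM in the other 8 neurons. In 1-2 the summed level of 14 microglial marker genes was 807 CPM, the highest of the type 1 neurons, and in 6-2 and 9-4 of type 2 it was 1829 and 1701 CPM with Hoxb8 at 0 and 0.0954 CPM. Of the 14 markers 5 were detected in 1-2, where Csf1r was at 0, and 13 in 6-2 and in 9-4. The part of microglial RNA in the Hoxb8 reads was not tested.

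The front groups 1 to 3 were detected in changing company. Hoxb2, which acts in the development of facial motor neurons, had 45.5, 0.14, 179, 0.28 and 83.3 CPM in type 2 neurons, and 238, 138, 77.0, 47.5 and 0 CPM in type 1 neurons. Hoxa2, the Hox gene with the most forward limit in the embryo, had 0, 0.29, 294, 0.42 and 0.22 CPM in type 2 neurons, and 0, 0, 0, 0.05 and 105 CPM in type 1 neurons. Hoxa2 was therefore detected in 1 neuron of each type, 10-3 and 9-1. The type 1 neuron with Hoxa2 detected was the one neuron with 0 counts of Hoxb2.

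Hoxb3 (ENSMUSG00000048763, chr11:96323326-96347930) was the one member with a higher level in type 2 by at least 4-fold on the log2(CPM + 1) scale. It had 13.8, 31.2, 18, 10.8 and 23.8 CPM in type 2 neurons, and 16.7, 23.9, 0, 0.55 and 0.99 CPM in type 1 neurons. All 5 type 2 neurons passed the detection limit, but 2 type 1 neurons, 1-1 and 1-2, had levels within the type 2 range. The means were 19.5 ± 8.1 CPM in type 2 and 8.42 ± 11.1 CPM in type 1, a difference of 2.19, which was 1.67 without 4-3, 1.82 without 8-2 and 1.91 without 9-1. Hoxb3 shares 2250 exon bases, and Hoxb2 953, with Hoxb3os on the other strand, which was not analysed here.

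Hoxa3, a gene of the pharyngeal arch that forms the thymus, had 10.4, 24.6, 0.03, 0 and 0 CPM in type 2 neurons, and 10.2, 55.4, 55.4, 5.09 and 0.22 CPM in type 1 neurons. Hoxd3, which shapes the first neck vertebrae, had 0, 0.05, 39.7, 0.18 and 9.89 CPM in type 2 neurons, and 0, 0, 0, 31.3 and 15.0 CPM in type 1 neurons. No neuron had both genes at the detection limit, but this split followed library depth. Hoxa3 was detected in 6-2, 1-1, 1-2 and 4-3, the libraries below 20000000 counts, and in 10-1. Hoxd3 had 0 counts in 6-2, 1-1, 1-2 and 4-3 and was detected in 10-3, 8-2 and 9-1, all deeper libraries. The part of depth in this split was not tested. Hoxa3 shares exon bases with Hoxaas2, Hoxaas3 and 5730596B20Rik on the other strand, so its level is uncertain.

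Hoxb1, the marker of a single hindbrain segment, stayed below detection with a highest level of 1.43 CPM in 4-3. Hoxd1 had 0 counts throughout.

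The 16 genes of groups 9 to 13, which in the embryo pattern the lower trunk, limbs and genital region, were detected in no neuron. Of these, 12 had 0 counts in all 10 neurons: Hoxa10, Hoxa11, Hoxa13, Hoxb13, Hoxc10, Hoxc11, Hoxc12, Hoxd9, Hoxd10, Hoxd11, Hoxd12 and Hoxd13. Hoxa9 reached 1.23 CPM, Hoxc13 0.836 CPM, and Hoxb9 and Hoxc9 had 1 count each. Their summed level was 0 to 1.47 CPM in type 2 and 0 to 1.77 CPM in type 1. In groups 7 and 8, Hoxa7 reached 2.52 CPM, Hoxc8 reached 5.05 CPM and Hoxd8 had no counts. With no read counted, the true level could by counting error alone be as high as 0.0717 CPM in 8-2, the library with most reads, and 0.306 CPM in 4-3, the one with fewest.

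Some of these low values differed between deeper and shallower libraries. Depth fell short of 20000000 counts for 6-2, 1-1, 1-2 and 4-3 but not for the remaining 6 neurons. Hoxa7 had 0.577 to 2.52 CPM in the deeper libraries and 0 to 0.134 CPM in the shallower ones. Hoxc8 had 0.601 to 5.05 CPM in the deeper and 0.0668 to 0.510 CPM in the shallower libraries. Hoxc13 had 0.127 to 0.836 CPM in the deeper libraries and 0 counts in the shallower ones. Hoxb1 went the other way, with 0 counts in the 6 deeper libraries and 0.0722 to 1.43 CPM in the 4 shallower ones. The first number of the name was 1, 4 or 6 in the shallower libraries and 8, 9 or 10 in the deeper ones. Depth and this number therefore cannot be told apart, and the part of either in these values was not tested.

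Levels were compared between genes per kilobase of exon (CPM per kb). On that scale Hoxa5 was the highest Hox gene in 8 of 10 neurons and among the top 2 in all 10, with a median of 271.9 CPM per kb. Hoxb5 was among the top 2 in 8 neurons, with a median of 102 CPM per kb, and was first in 1-2. The exception in 10-3 was Hoxa2, at 165.9 CPM per kb beside 155.9 CPM per kb for Hoxa5, and in 9-1 Hoxb7 came second. Below Hoxa5 and Hoxb5 the medians over neurons were 24.6 for Hoxc5, 22.2 for Hoxc4, 18.6 for Hoxb6, 17.9 for Hoxb2, 14.6 for Hoxa4 and 7.75 CPM per kb for Hoxa6. Neighbours in that lower part of the order overlapped widely between neurons.

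**Figure D2:**
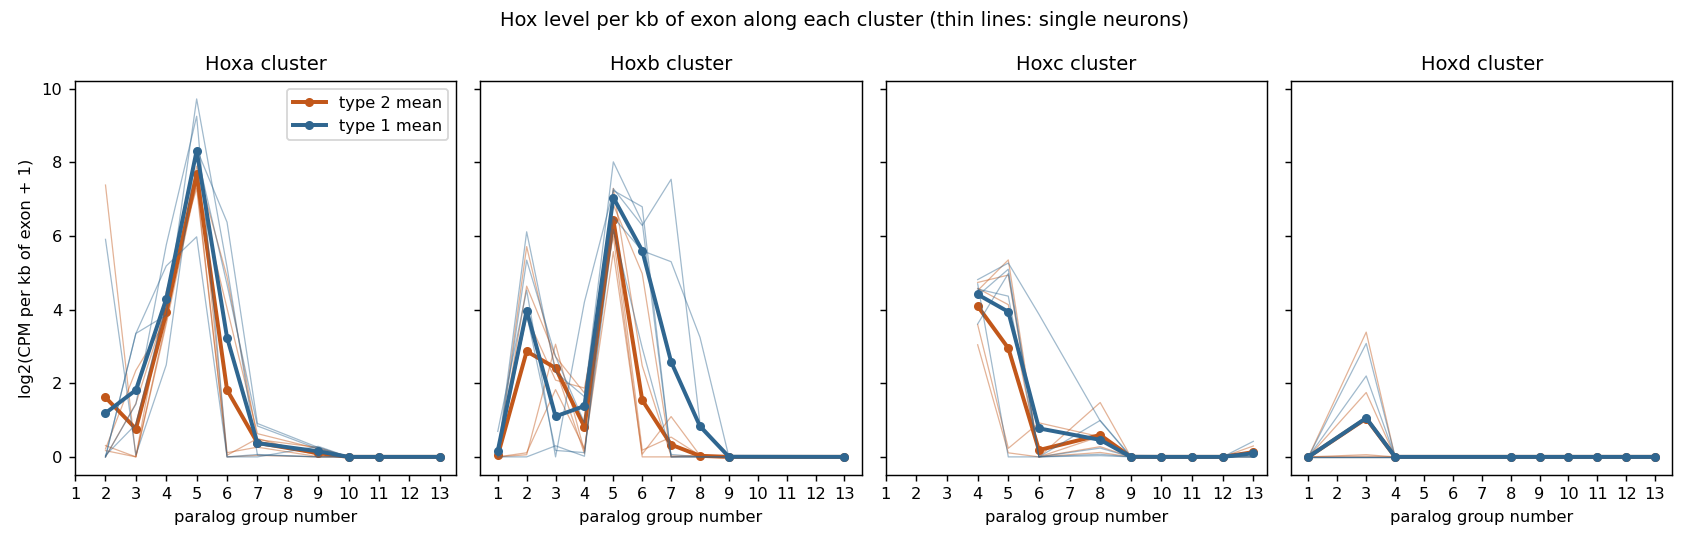
Level per kilobase of exon, log2(CPM per kb + 1), against paralog group number in each cluster; thin lines are single neurons and thick lines the means of 5 type 2 and of 5 type 1 neurons. Both types peak at group 5 in the Hoxa and Hoxb clusters, type 1 lies above type 2 at groups 6 and 7 of Hoxb, and the lines lie at or near 0 from group 9 on.

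The summed level of all 39 genes was 761, 1027, 1484, 529 and 1026 CPM in type 2 neurons, and 2575, 883, 2569, 1081 and 1913 CPM in type 1 neurons. The ranges overlapped: 10-3 of type 2 lay above 1-2 and 8-2 of type 1. The means were 965 ± 357 CPM in type 2 and 1804 ± 800 CPM in type 1, a difference of -0.85 in mean log2(summed CPM + 1). Summing reads over neurons gave 1020.8 CPM for type 2, with exact Poisson 95% limits of 1015.7 and 1025.9, and 1620 CPM for type 1, with limits of 1613 and 1628; these limits cover counting error only and not the spread between cells. Fewer transcripts of Hox genes and more RNA of other genes in a cell cannot be told apart on this scale.

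By position, groups 1 to 3 summed to 70.0, 61.8, 531, 11.7 and 117 CPM in type 2 neurons, and 347, 217, 134, 84.5 and 121 CPM in type 1 neurons, a difference of -0.98. That value was -0.31 without 9-2 and -1.66 without 10-3, the ratio of mean CPM gave -0.19, and reads pooled over neurons turned the direction, with 178 CPM for type 2 against 151 CPM for type 1. Groups 4 to 8 summed to 691, 965, 952, 516 and 907 CPM in type 2 neurons, and 2228, 664, 2435, 995 and 1790 CPM in type 1 neurons, a difference of -0.89. By cluster, the Hoxa genes summed to 497 ± 137 CPM for type 2 against 935 ± 575 CPM for type 1. The Hoxb genes summed to 358 ± 203 CPM for type 2 against 723 ± 326 CPM for type 1, and the Hoxc genes to 101 ± 71.0 CPM for type 2 against 137 ± 57.6 CPM for type 1. The Hoxd genes summed to 9.96 ± 17.2 CPM for type 2 against 9.26 ± 13.9 CPM for type 1.

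**Figure D3:**
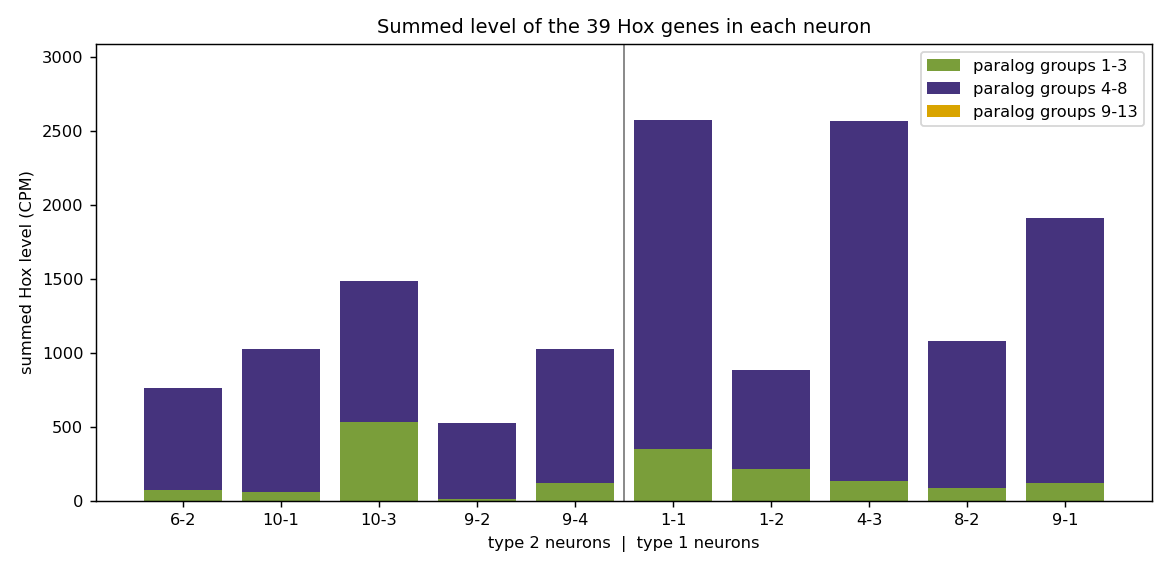
Summed CPM of the 39 Hox genes in each neuron, type 2 on the left and type 1 on the right, stacked by paralog groups 1-3, 4-8 and 9-13. Groups 4-8 make up most of every bar, groups 9-13 reach 1.77 CPM and are too low to be seen, and 1-1 and 4-3 stand highest at 2575 and 2569 CPM.

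Of the 17 detected members, 1 was higher in type 2 by at least 2 on the log2(CPM + 1) scale (Hoxb3), where 13.7% of 11782 detected genes were, and 2 were lower by at least 2 (Hoxb6 and Hoxb7), where 7.88% were. A difference of 2 is 4-fold in CPM + 1, and it understates the ratio for genes near 0. The mean log2 level was lower in type 2 for 14 of the 17 and higher for 3, Hoxb3, Hoxa2 and Hoxd3, and it was lower for 43.8% of all detected genes. The median difference was -0.68 over the 17 and 0.24 over all detected genes. The 5 members that passed the detection limit only through type 1, Hoxb7 among them, entered by a rule that favours a lower level in type 2. The 14, the 2 lower by at least 2 and this median are therefore only a description of these libraries. For no member did the ranges of the types stand apart, as they did for 1.46% of detected genes with type 2 above and 0.594% with type 2 below.

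**Figure D4:**
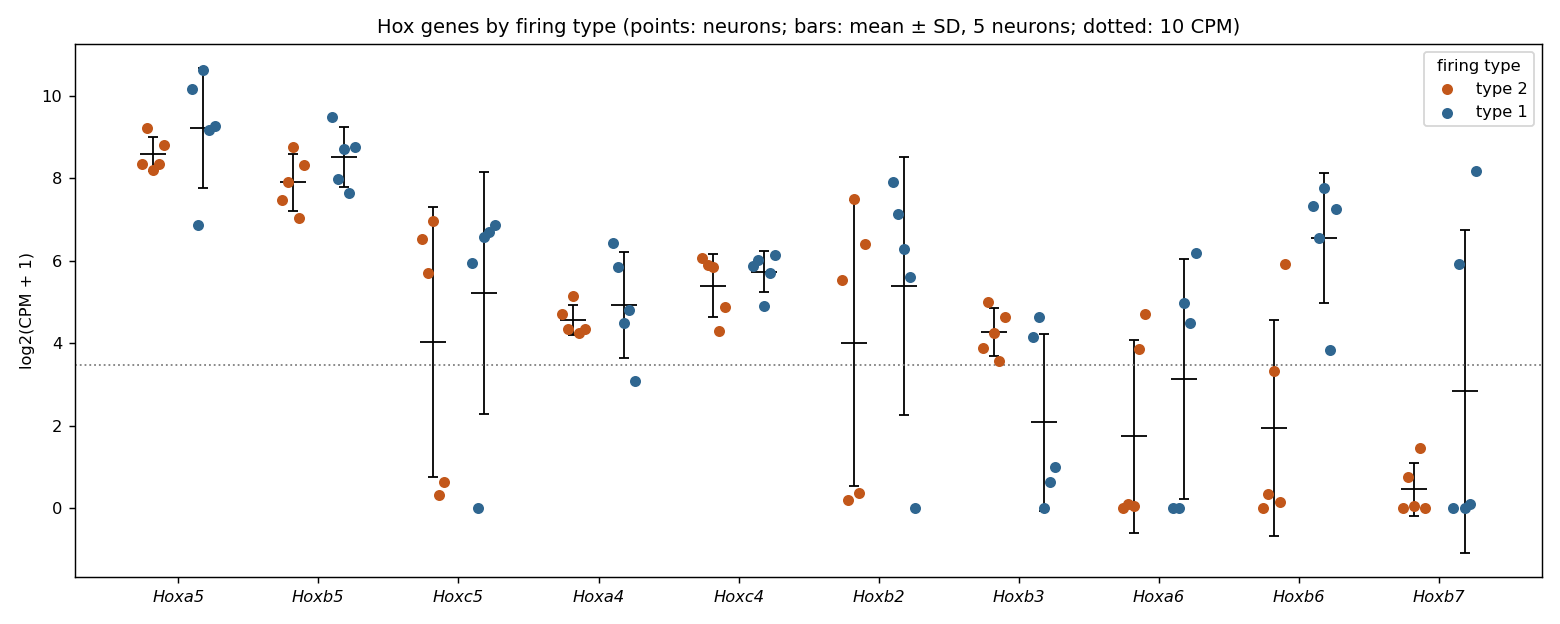
Level of 10 Hox genes on a log2(CPM + 1) scale; points are neurons, with type 2 left of type 1 for each gene, bars give the mean and SD of 5 neurons, and the dotted line marks 10 CPM. The types lie furthest apart for Hoxb6, a difference of -4.60, and the points of the types overlap in range for all 10 genes.

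Depth and the RNA of other cells differed among the neurons. Of the type 2 libraries 1 of 5, and of the type 1 libraries 3 of 5, had fewer than 20000000 counts. Among the 6 deeper libraries the summed Hox difference was -0.59, and among the 4 shallower ones -1.24. Among neurons whose name starts with 9 it was -1.38, from 2 type 2 neurons and 1 type 1 neuron. All 14 microglial markers were detected in at least 1 neuron, and they summed to 1829, 4.30, 47.8, 524 and 1701 CPM in type 2 neurons, and 0.0668, 807, 0.306, 59.7 and 104 CPM in type 1 neurons. Without 6-2, 9-2 and 9-4 the summed Hox difference was -0.42, and for groups 1 to 3 it was 0.19. This left only 10-1 and 10-3 in type 2 and removed no type 1 neuron. It kept 1-2 of type 1, whose microglial sum of 807 CPM was above the 524 CPM of 9-2. The 10 pan-neuronal markers, all detected, summed to 6478 to 9213 CPM in type 2 and 6464 to 9076 CPM in type 1. Of these 10, 3 were at least 2 lower in type 2 and 1 at least 2 higher. Among all detected genes 7.88% were lower and 13.7% higher by that much. Rbfox3 differed by -3.56, Nefl by -3.47, Nefm by -2.83 and Syt1 by 2.13. Nefl shares 1108 exon bases with Nefm on the other strand. Lepr, the receptor gene whose reporter marked the cells, had 0.890 to 50.7 CPM in type 2 and 1.15 to 122 CPM in type 1. Markers of astrocytes summed to 0.0481 to 189 CPM in type 2 and 0.134 to 106 CPM in type 1. Those of oligodendrocytes summed to 39.2 to 220 CPM in type 2 and 2.00 to 1045 CPM in type 1, and those of vascular cells to 0.580 to 10.7 CPM in type 2 and 2.87 to 27.6 CPM in type 1. The part of depth and of other cells in the Hox values was not tested.

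Genes that mark the forebrain, the midbrain or the front end of the hindbrain gave a view of position from outside the clusters. None of 9 such genes, among them Otx1, Otx2, Emx1, Emx2, Six3, En1, En2 and Gbx2, was detected. Their sum was at most 7.05 CPM in type 2, in 6-2, and at most 1.27 CPM in type 1. In 6-2 Gbx2, a gene of the front hindbrain, had 6.97 CPM of that sum. Of 12 transcription factor genes of caudal hindbrain neurons 5 were detected, 2 of them at least 2 higher in type 2 and 1 at least 2 lower. Among all detected genes 13.7% were higher and 7.88% lower by that much. Lhx5, a gene of hindbrain and spinal interneurons, averaged 96.1 ± 72.9 CPM in type 2 neurons against 0.0335 ± 0.0466 CPM in type 1 neurons, a difference of 6.11, and it shares 69 exon bases with Gm27199 on the other strand.

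Hox proteins bind DNA together with the TALE homeodomain proteins of the Pbx, Meis and Pknox families. All 9 genes of these families were detected, 3 of them at least 2 higher in type 2 and 1 at least 2 lower. Among all detected genes 13.7% were higher and 7.88% lower by that much. The median difference was 0.50 beside 0.24 over all detected genes. Meis2 had 157 ± 108 CPM in type 2 and 0.634 ± 1.06 CPM in type 1, a difference of 6.32, and Meis1 differed by 2.30, which was between 1.59 and 3.27 when each neuron was left out in turn.

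Upstream of the clusters, retinoic acid receptors, enzymes and hindbrain regulators made a list of 21 genes, of which 11 were detected. Cdx1, Cdx2 and Cdx4, which act on the trunk part of the clusters, and Aldh1a2, Cyp26a1, Cyp26b1 and Cyp26c1, enzymes that make or break down retinoic acid, had 0 counts in every neuron. Of the 11, 1 was at least 2 higher in type 2 and 3 at least 2 lower, with a median of -1.17. Among all detected genes 13.7% were higher and 7.88% lower by that much, with a median of 0.24. Rxrg, a partner of the retinoic acid receptors, had 0, 0.05, 0, 0.04 and 0.29 CPM in type 2 neurons, and 12.7, 150, 0, 244 and 18.4 CPM in type 1 neurons, a difference of -4.55. Rarb, a receptor gene that is itself a retinoic acid target, had at most 0.16 CPM in type 2 neurons, and 0, 51.3, 34.9, 98.2 and 84.1 CPM in type 1 neurons, a difference of -4.69. Rarb shares 1793 exon bases with Top2b on the other strand, so its value is uncertain.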

How the data were processed

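RNA of 10 single neurons, 5 per firing type, was sequenced with 1 library each. Total RNA and standard Illumina libraries are stated in the labels. The submitters' processing notes name cutadapt (1.13), STAR, HTSeq (0.6.1p1), DESeq2 and the mm10 build. Whether counting used strand, and which annotation, is not given in the sources used here. Values as deposited by the authors are whole-number counts per gene, without molecular identifiers. Library totals were 9796799 to 41844825 counts.

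CPM was computed from summed gene counts. Of 25006 identifiers, 24942 matched a symbol and GENCODE M21. A type counts as 1 sample, so no test was run. A level is log2(CPM + 1), a difference type 2 minus type 1 of its mean, and a difference of 2 took the place of a threshold. The members, lists and alternatives were chosen with earlier results of these data known. A few genes are not reported here. Every other detected member was named, and from each other list up to 2 genes that differed most, if 3 or more neurons of a type had them detected. Sequences are from RefSeq (GRCm38.p6). Poisson limits and the limits for a count of 0 cover counting error only. Computing the differences was checked on simulated data.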

Additional observations from a re-analysis of the deposited data

Results flagged for a closer look

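With 5 neurons per type, a neuron was picked out where its gap to the nearest other neuron of its type was over 0.71 of the type's range (Dixon's 95% value). Chance picks out about 1 in 20 groups when values are normally distributed and untied. Of the 42 groups examined, 6 were picked out. Ties occurred here: Hoxc6 was at 0 in the other 4 neurons of each type, so any value above 0 is picked out. The 6 therefore cannot be set against that rate. In type 2, 10-3 was far above the others for Hoxa2 (294 CPM) and 9-4 for Hoxc6 (2.16 CPM, below the detection limit). In type 1, 9-1 was far above for Hoxa2 (105 CPM) and Hoxc6 (32.9 CPM). Also in type 1, 1-2 was far below for Hoxc5 (0 CPM), and 8-2 had 9 detected Hox genes where the other 4 were tied at 10. Hoxa2 and Hoxc6 were picked out in both types, in each case with a single neuron far above the rest.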

How the results depend on the processing

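Differences of single Hox genes gave 357 values, 17 genes under 21 alternatives each. Of these, 341 moved by less than the spread between neurons and 16 by more. That spread reached 3.30 for Hoxb2, so a value could change sign and still count as a smaller move. The sign held in all 21 for Hoxa3, Hoxa5, Hoxa6, Hoxb3, Hoxb5, Hoxb6 and Hoxb7. It held in 20 for Hoxb8, in 19 for Hoxb2, Hoxc4 and Hoxc5, and in 18 for Hoxa4, Hoxb4 and Hoxc6. For Hoxa2 it held in 17 and for Hoxd3 in 12. With first number 9, Hoxb2 stood at 3.38 and Hoxa2 at -6.33. The summed Hox difference stayed below 0 in all 21 alternatives, between -1.38 and -0.42. TMM scaling put the median difference of all detected genes at 0.40 and the summed Hox difference at -0.63. Relative to that median the summed difference was -1.02, beside -1.10 with library totals. Under both, 14 of the 17 detected members were lower in type 2. Among the 14 are the 5 detected in type 1 alone, a choice that favours this direction. Members at least 2 higher in type 2 numbered 0 with a pseudocount of 10, by ratios of mean CPM and with detection at 50 CPM. Of all detected genes 2.34%, 14% and 15.5% were higher under these settings. Such members numbered 2 in neurons with first number 9 and without 6-2, 9-2 and 9-4, where 36.5% and 18.4% of all detected genes were. Members at least 2 lower numbered 1 with a pseudocount of 10 and 5 by ratios of mean CPM, where 1.6% and 13.9% of all detected genes were. They numbered 6 in neurons with first number 9 and in libraries above 20000000 counts, where 21.0% and 18.2% of all detected genes were. Ranges stood apart for 13 members in neurons with first number 9, 4 in libraries below 20000000 counts, 1 above it and 1 without 6-2, 9-2 and 9-4; with so few neurons they stood apart for 70.9%, 38.5%, 16.5% and 9.97% of all detected genes under those settings. In first number 9, type 1 had 10 detected members and type 2 had 8. At 1 CPM type 2 had 19 detected and type 1 had 21, and at 50 CPM they had 7 and 12. Libraries below 20000000 counts had 6 members detected in every neuron. The shares of all genes beside these counts were not computed. Leaving out each neuron gave 0 to 1 higher (0 without 4-3, 8-2 or 9-1) and 2 to 3 lower. Ranges stood apart for 0 to 1 (Hoxb6, without 9-4 or 8-2). Without 9-4 and without 8-2, 14.5% and 17.5% of all detected genes were at least 2 higher, and 9.08% and 8.68% at least 2 lower. Ranges stood apart for 3.03% and 3.77% of all detected genes. Leaving out 1 neuron took the differences of Meis1, Mtf2, Ash2l, Smc3 and Smc1a to within 2 of 0. No paired analysis was possible because the replicate numbers were given in accession order and no test was run. The limits are 5 cells per type, unknown animals, no molecular identifiers and an unknown strand setting.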

Other observations

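Genes that flank the Hox clusters were also measured. Of 9 flanking genes 7 were detected, 2 of them at least 2 higher in type 2, with a median difference of 0.74. Among all detected genes 13.7% were higher by that much, with a median difference of 0.24. Evx1, a homeobox gene of spinal interneurons beyond Hoxa13, had 30.3, 210, 1.22, 38.0 and 29.7 CPM in type 2 neurons, and 0, 0, 0, 0.02 and 0.19 CPM in type 1 neurons. The ranges stood apart, a difference of 4.75, while Hoxa10, Hoxa11 and Hoxa13 on the near side had 0 counts. Evx1 shares 73 exon bases with Evx1os on the other strand. Lnpk, beyond the Hoxd cluster, was 2.78 higher in type 2.

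Among noncoding RNA genes inside the clusters, Hoxaas2 reached the highest level, 90.1 CPM in 10-3. Of 13 such genes 4 were detected, and none differed by 2 or more in either direction. Among all detected genes 13.7% were at least 2 higher in type 2 and 7.88% at least 2 lower. Hoxaas2, which shares 503 exon bases with Hoxa3 on the other strand, had a mean of 36.0 CPM in type 2 and 16.2 CPM in type 1 (n = 5 neurons each). Reads at Mir10a, which lies between Hoxb4 and Hoxb5, were found in 1-2 of type 1 alone, at 7.87 CPM, and Mir10b had 0 counts (both named after their values were seen); such reads need not be mature microRNA. The RefSeq mature sequences share their seed, bases 2 to 8, in capitals.
mmu-miR-10a-5p: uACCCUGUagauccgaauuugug
mmu-miR-10b-5p: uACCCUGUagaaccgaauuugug

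Genes of the chromatin complexes that act on Hox clusters were detected in most cases. For comparison, 13.7% of all detected genes were at least 2 higher in type 2 and 7.88% at least 2 lower. The median difference over all detected genes was 0.24. Of 22 Polycomb genes 19 were detected, none at least 2 higher in type 2 and 2 at least 2 lower, with a median of -0.30; Cbx7 differed by -3.98 and Mtf2, which shares 395 exon bases with Tmed5, by -2.60. Of 13 Trithorax genes all were detected, with 2 at least 2 higher and 2 at least 2 lower and a median of 0.47; Wdr5 differed by 3.56 and Ash2l by -2.38. Of 8 CTCF and cohesin genes all were detected, with a median of -0.12; Smc3 differed by 2.40 and Smc1a by -2.11, and no other passed 2 in either direction.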
